A study of Mus musculus with 4 samples.

Results

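The regions described here are the places inside protein-coding genes, away from the gene ends, where antibodies against phosphorylated ATF2 gave a peak in 3 libraries of mouse haematopoietic stem cells. Overlapping peaks of both T69/71 libraries and of replicate 1 of S490/498 were merged on chromosomes 1 to 19, X and Y, and the 4174 merged regions with a peak in all 3 lists were called core regions. Of these, 896 (21.5%, exact binomial 95% interval 20.2 to 22.7) had their midpoint inside a protein-coding gene and over 1 kb from every protein-coding gene end. The other core regions lay at the end of a single gene (1918), at the ends of 2 or more genes (599) or between genes (761). The regions were chosen by the presence of a peak in those 3 libraries and by their position, so the fold enrichments given below describe them and test nothing. Without replicate 1 of S490/498 in the rule there were 1791 such regions, and with −log10 q of at least 5 in each list 540. Replicate 2 of S490/498, with 435 peaks, was not used in the choice.

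All 4 libraries came from wild-type C57BL/6J mice, from whose bone marrow LSK cells (no lineage markers, Sca-1 and Kit present) were sorted that carried CD150 but not CD48. CUT&Tag, in which an antibody tethers a transposase to chromatin, was carried out on 2000 to 5000 cells per library with 17 to 20 PCR cycles. The antibodies were raised against ATF2 phosphorylated at T69/71 (the antibody field gives the first residue as T67) and at S490/498, with 2 libraries each. No other genotype or treatment enters, and an IgG control is not analysed here. Whether the paired libraries of an antibody used different mice is not in the labels, so the spread between them may be technical. The names inside the lists begin with ATF2-1 in replicate 1 of T69/71, with P-ATF-1 in its replicate 2 and with ATF2-2 in both S490/498 lists. The sample titles are followed here.

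ATF2 is a leucine-zipper transcription factor that pairs with Jun and with its own relatives and reads the cyclic AMP response element (CRE) and, with Jun, AP-1-like sites. Such sites occur at promoters as well as in distal elements. Many mammalian genes have several promoters, and a promoter that serves a shorter transcript lies inside the span of the gene. A peak inside a gene can therefore mark a start of transcription or lie away from one.

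Of the 896 regions, 731 lay in a host gene with at least 1 listed RefSeq start, and in 224 of those (30.6%, 27.3 to 34.1) the region overlapped the window of a listed start, which runs from 250 bases before the start to 50 after it. The midpoints of these regions lay over 1 kb inside the gene span, which runs to the outermost annotated transcript, and a start itself can lie nearer to the end of the span, as at Iba57. In 118 of the 224 the host gene had only 1 listed start, so the start was not an alternative to another listed one. The sequences of 7 such windows are shown, those in which a CRE or AP-1 match lay upstream of the start and centred within 60 bp of the summit in replicate 1 of T69/71. This limit was set after the values were seen. The sequences are from RefSeq, build GRCm38.p6 (mm10), and run 5′ to 3′ along the gene's strand, with the match in capitals.
Zbtb11 (chr16:55973670-55973757, plus strand): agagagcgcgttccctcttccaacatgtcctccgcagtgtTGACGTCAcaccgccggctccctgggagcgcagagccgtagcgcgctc
Ccnl1 (chr3:65958250-65958307, minus strand): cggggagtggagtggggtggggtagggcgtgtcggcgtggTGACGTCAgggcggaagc
Tiprl (chr1:165237074-165237161, minus strand): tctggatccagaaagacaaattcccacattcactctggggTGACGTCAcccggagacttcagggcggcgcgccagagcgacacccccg
Slc25a25 (chr2:32424169-32424256, minus strand): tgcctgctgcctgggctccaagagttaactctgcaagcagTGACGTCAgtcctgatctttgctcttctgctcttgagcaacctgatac
Aptx (chr4:40703195-40703251, minus strand): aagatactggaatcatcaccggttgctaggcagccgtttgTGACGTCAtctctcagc
Ankrd13c (chr3:157946912-157946999, plus strand): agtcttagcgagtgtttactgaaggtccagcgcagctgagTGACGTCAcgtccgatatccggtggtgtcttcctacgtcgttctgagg
Creb5 (chr6:53573289-53573373, plus strand): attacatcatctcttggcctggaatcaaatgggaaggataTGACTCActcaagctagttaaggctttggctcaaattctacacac

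At Zbtb11, a BTB zinc finger gene, the CRE began 94 bases before the start and its centre lay 21 bp from the summit. Its fold enrichment was 17.7 and 13.9 in replicates 1 and 2 of T69/71 and 14.4 in replicate 1 of S490/498. Fold enrichment is the authors' ratio of the pileup at the summit to an expected background. Whether that background came from the same library or from a control is not given in the sources used here. At Ccnl1, which encodes the splicing-associated cyclin L1, the CRE began 18 bases before the start and the folds were 15.1, 12.2 and 13.2 in the same order. At Tiprl, a regulator of PP2A-type phosphatases, the region lay 45.7 kb inside the gene span and the folds were 13.9, 8.80 and 11.5. Slc25a25, a mitochondrial nucleotide carrier, had 8.86, 9.76 and 8.82 at one of its 3 listed starts. Aptx, a DNA strand-break repair enzyme, had 11.2, 7.56 and 10.4. Ankrd13c, an ankyrin repeat gene, had 10.1, 5.17 and 9.72, with the match 32 bp from the summit. In Creb5, a close relative of ATF2, the AP-1 match lay 2 bp from the summit at a start 286 kb inside the gene, with folds of 17.3, 11.2 and 12.4. In 6 of the 7 windows, all but Slc25a25, replicate 2 of T69/71 had the lowest fold. None of the 7 had a peak in replicate 2 of S490/498.

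Regions inside genes were denser than regions between genes. There were 0.906 per Mb over 988.5 Mb of gene body and 0.469 per Mb over 1623 Mb between genes, with 1 kb around gene ends left out of both. The 896 regions inside genes include the 224 at a listed start, and assembly gaps were not removed from either length. The part of these in the difference was not tested. The density fell with distance from the outer start of the gene. It was 7.35 per Mb at 1 to 2 kb (107 regions), 2.72 at 2 to 5 kb (111), 1.25 at 10 to 20 kb (113), 0.669 at 50 to 100 kb (88) and 0.203 beyond 200 kb (35). Regions that held no listed start showed the same order with a smaller range, from 2.13 per Mb at 1 to 2 kb to 0.191 beyond 200 kb. All peaks inside genes, core or not, fell from 19.1 to 1.34 per Mb in replicate 1 of T69/71, from 20.5 to 1.82 in replicate 2 and from 10.3 to 0.735 in replicate 1 of S490/498. The decline was thus present in each of the 3 libraries taken alone.

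**Figure D1:**
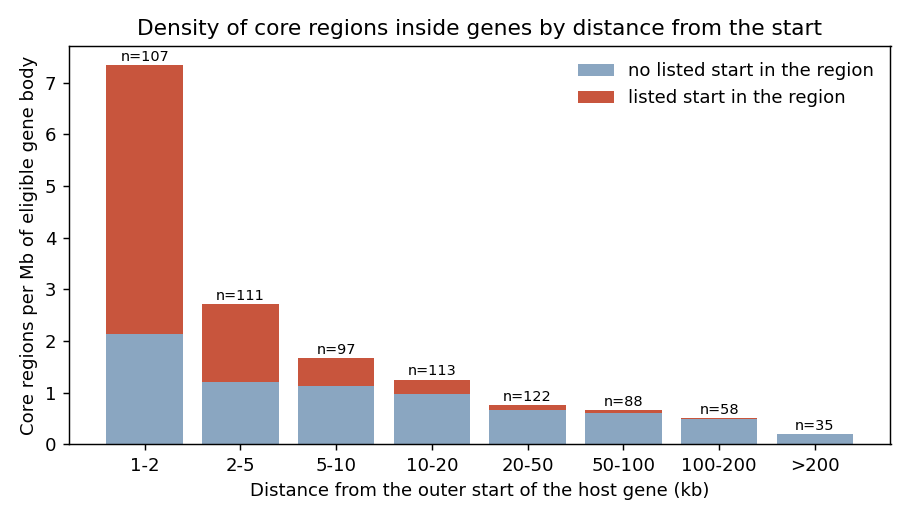
Core regions inside genes per Mb of eligible gene body (vertical axis) by distance from the outer start of the host gene in kb (horizontal axis), for the 731 regions whose host gene has a listed start. Red is regions that hold a listed start, blue is the rest, and n is the number of regions. The first bar reaches 7.35 per Mb, and most of it is regions that hold a start.

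The median distance from the outer start was 14.3 kb (95% interval of the median 11.8 to 16.8), with quartiles of 3.67 and 47.2 kb. The first 50% of the host gene's length held 497 of the 731 regions (68.0%, 64.5 to 71.4), and the first 10% held 142 (19.4%). The last 10% held 28 (3.83%). Among the 507 regions that held no listed start, the first 50% of the gene's length held 295 (58.2%, 53.8 to 62.5). Their median distance was 23.6 kb, against 3.28 kb for those at a start. The farthest regions lay in Pde4d, a cyclic AMP phosphodiesterase gene, at 1168 and 608 kb, in Dab1 at 1029 kb, in Camta1 at 753 kb and in Schip1 at 560 kb. The Pde4d region at 1168 kb had folds of 10.4, 7.69 and 6.42 in replicates 1 and 2 of T69/71 and replicate 1 of S490/498. The Schip1 region also lies in Iqschfp and was 52.4 kb from a listed start.

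Starts inside genes carried core regions less often than starts at gene ends. Of 3881 listed coding starts over 1 kb from coding gene ends, 279 (7.19%) were overlapped by a core region, and 261 of these by a region inside a gene as defined here. Of 17382 listed starts within 1 kb of a gene end, 2661 (15.3%) were. Within the gene-body peaks of each library, those at a listed start recurred in the other libraries more often. In replicate 1 of T69/71, 216 of 453 such peaks (47.7%, 43.0 to 52.4) lay in core regions, against 682 of 3437 others (19.8%, 18.5 to 21.2). In replicate 2 of T69/71 the shares were 44.1% and 15.5%, and in replicate 1 of S490/498 76.5% and 39.5%. Peaks at a start were also stronger. Their median −log10 q was 7.67, 7.55 and 6.69 in these libraries and that of the others 4.36, 5.44 and 4.19, and the part of strength in this recurrence was not tested.

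Summits in the 224 regions lay mostly upstream of the start. The median position was -67 bp in replicate 1 of T69/71, -73 bp in replicate 2 and -70 bp in replicate 1 of S490/498. The summit lay upstream in 65.6%, 71.9% and 63.4% of regions, and within 100 bp of the start in 42.4%, 53.6% and 44.2%. Replicate 2 of T69/71 was thus the most tightly placed.

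**Figure D2:**
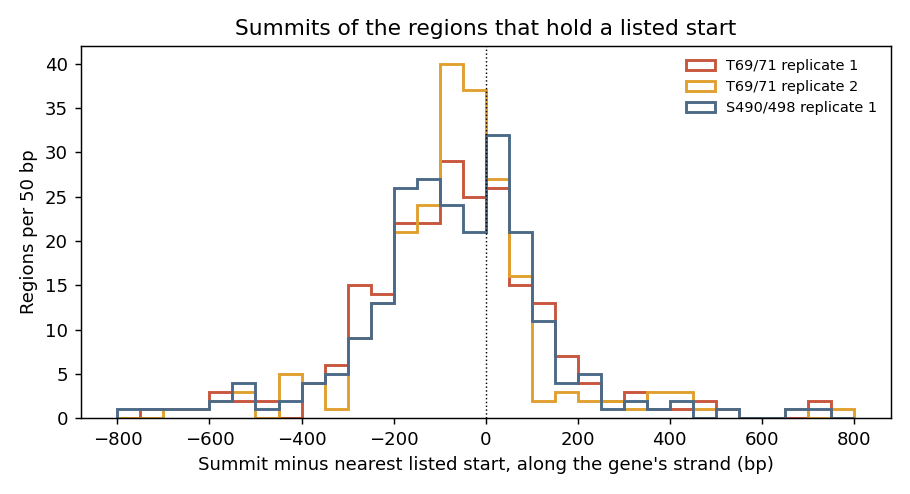
Position of the summit relative to the nearest listed start in bp along the gene's strand (horizontal axis) and number of regions per 50 bp (vertical axis), for the 224 regions that hold a start. Lines are the 3 libraries. Medians lie between -73 and -67 bp in all 3, and the dotted line is the start. The regions were chosen by overlap with a window that lies mostly upstream of the start, which favours upstream summits.

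The start windows under these regions were rich in CpG. Over 261 windows the median GC content was 64% and the median ratio of observed to expected CpG was 0.828, against 54.0% and 0.374 in 3602 start windows inside genes without a core region. Starts at gene ends with a core region had 63.3% and 0.848. The CRE (TGACGTCA) was in 15 of the 261 windows (5.75%, 3.25 to 9.30) and in 42 of the 3602 (1.17%, 0.842 to 1.57). Starts at gene ends with a core region held it in 8.19% (7.18 to 9.30), and all 21263 listed coding starts in 2.23%. Among windows with a CpG ratio over 0.6 the shares were 5.56% (12 of 216, 2.90 to 9.50) with a region and 1.94% (22 of 1134, 1.22 to 2.92) without. These intervals only just overlapped. Overlap of intervals, here and below, is not a test of a difference. Several windows of a gene can overlap, so windows are not independent.

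The AP-1 match (TGANTCA) did not follow that order, with 4.98% (2.68 to 8.37) of windows with a region and 7.97% (7.10 to 8.90) of those without, intervals that overlapped. The ETS match (CCGGAAG) was in 20.3% (15.6 to 25.7) against 5.89% (5.14 to 6.71), the GC box (GGGCGG) in 75.5% against 35.6% and CCAAT in 43.7% against 34.0%. The E-box CAGCTG was rarer with a region, at 8.05% (5.05 to 12) against 19.3% (18.0 to 20.6). Intervals overlapped for the RUNX match TGTGGT (12.6% and 16.6%), the match AGATAAG of the GATA factors (2.30% and 2.97%), the PU.1 match GAGGAAGT (2.68% and 2.75%), CTCF (1.92% and 2.58%) and the C/EBP-ATF composite TGATGNAA (1.53% and 3.75%). The NRF1 match was in 2.68% (1.09 to 5.45) against 0.472% (0.275 to 0.755).

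These shares moved when windows with a CpG ratio over 0.6 were compared. The GC box was then in 79.2% (73.1 to 84.4) with a region and 70.5% (67.7 to 73.1) without. ETS was in 22.2% (16.9 to 28.4) against 12.4% (10.6 to 14.5) and CCAAT in 42.1% (35.5 to 49.0) against 27.6% (25.02 to 30.3). Intervals overlapped for the E-box (6.94%, 3.94 to 11.2, against 13.0%, 11.1 to 15.1) and for NRF1 (2.78%, 1.03 to 5.95, against 1.32%, 0.742 to 2.17). AP-1 was in 4.63% (2.24 to 8.35) with a region and 4.06% (2.99 to 5.37) without, and these intervals overlapped as well. Both strands were searched, a match is only a match of letters, and motifs were not sought away from starts, where no sequence was used.

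**Figure D3:**
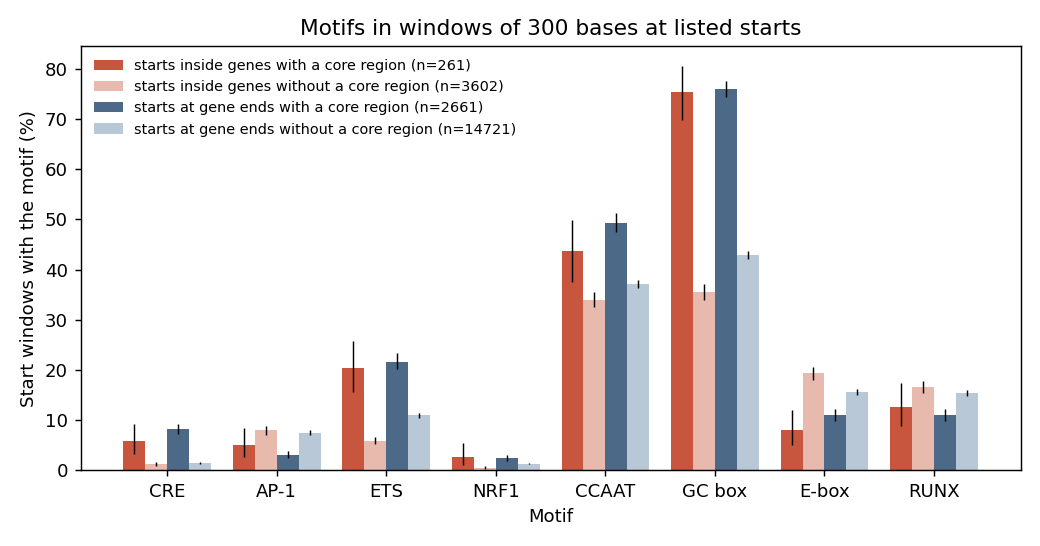
Share of windows of 300 bases at listed coding starts that hold each motif (vertical axis, percent; horizontal axis, motif), with exact binomial 95% intervals as bars. Red is starts inside genes, blue is starts at gene ends, and dark shades are starts with a core region. Over all windows, CRE, ETS and GC box shares are higher in the dark bars and AP-1 and E-box shares are lower. Among CpG-rich starts inside genes the AP-1 shares are 4.63% with a core region and 4.06% without, with intervals that overlap.

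Among the strongest regions at a start was Rnf44, which encodes a RING finger protein. Its region (chr13:54687676-54688442) lay 6.02 kb inside the gene, with folds of 17.8 and 16.9 in replicates 1 and 2 of T69/71 and 16.5 in replicate 1 of S490/498. Rassf1, a tumour suppressor gene with a known internal promoter, had its region 31 bp from the nearer of 2 listed starts, with folds of 15.7, 14.9 and 15.6. The folds of these genes lay within a narrow range across libraries. Lrif1, which encodes a nuclear receptor-interacting factor, had 16.6, 17.7 and 14.2 at 37.0 kb from the outer start. Dusp16, a phosphatase that inactivates the kinase JNK, had 17.6, 15.7 and 15.3 at 14.5 kb, and the long noncoding gene 1700055D16Rik ends within 1 kb of it. Tob1, an inhibitor of proliferation, had 14.2, 17.1 and 10.2. Por (cytochrome P450 reductase), Hdac4 (a histone deacetylase), Dnmt1 (maintenance DNA methyltransferase) and Prkar1a (a regulatory subunit of protein kinase A) also had a region at a start. In Prkar1a, with 6 listed starts, a CRE began 49 bases before the start and the folds were 8.07, 6.28 and 5.98. Rnf44, Rassf1, Lrif1, Dnmt1 and Prkar1a are named outside the rule for naming genes, after their values were seen.

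Regions with and without a start had similar middle values but a different upper range. The median fold at a start was 8.95 and 8.76 in replicates 1 and 2 of T69/71 and 7.28 in replicate 1 of S490/498. Without a start it was 8.16, 8.64 and 6.86. The quartiles at a start were 6.87 and 11.2 in replicate 1 of T69/71, and without a start 6.38 and 10.5. The highest fold at a start was 19.1, 20.7 and 16.5, against 47.8, 57.2 and 46.0 without one. The pileup at the summit, recovered from the deposited fold and p, was 16 fragments at the median region with T69/71, in both libraries, and 11 in replicate 1 of S490/498, so a single fold rests on few fragments.

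A fold of at least 20 in all 3 libraries was found in 13 regions, none of them at a listed start (12 lay away from one, and Lama1 has none listed). The host genes were Flt1, Ttc21b, Chl1, Ppp1r9a, Lama1, Smo, Dop1b, Filip1l (which overlaps Cmss1), Cdk8, Pxylp1, Camk1d, Slc22a29 and Col19a1. Pxylp1, Slc22a29 and Col19a1 are named outside the rule, after their values were seen. The region in Flt1, a VEGF receptor gene (chr5:147611435-147611719), had folds of 47.8, 54.2 and 46.0 in replicates 1 and 2 of T69/71 and replicate 1 of S490/498 and lay 115 kb from the start. Ttc21b, a gene for a ciliary protein, had 47.4, 48.6 and 44.2, and Chl1, a neural adhesion gene, had 41.0, 57.2 and 40.8. Lama1, a laminin gene, had 43.5, 39.9 and 37.7. The median width of the 13 was 333 bp against 486 bp for all 896, with a range of 243 to 1155 bp, and 7 were under 350 bp. The limit of 350 bp was not set in advance. A list of regions that give signal with any antibody, repeat annotation and a control library were not used here, and their part in these regions was not tested. Csf2ra, the GM-CSF receptor subunit gene, was among the 10 best by mean rank of −log10 q with lower folds of 10.1, 12.7 and 11.8, over a region of 1775 bp.

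**Figure D4:**
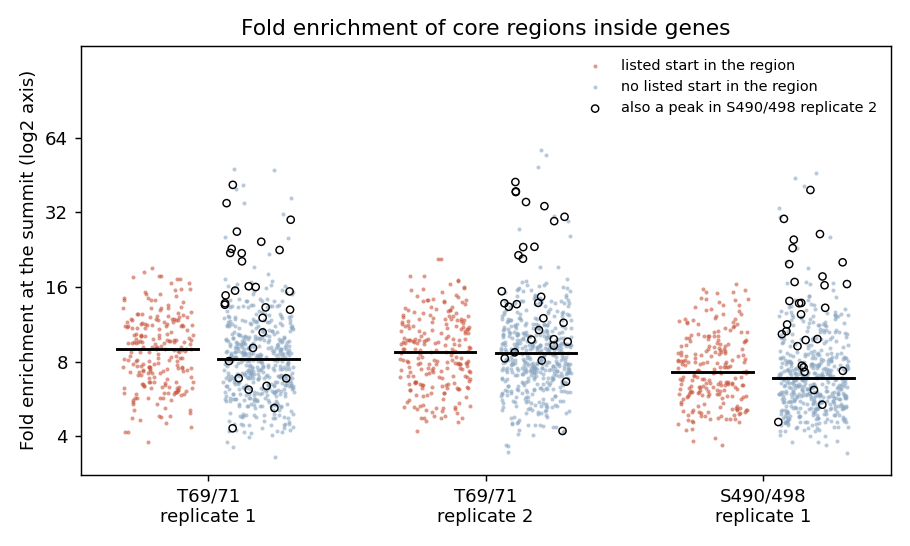
Fold enrichment at the summit (vertical axis, log2 scale) in the 3 libraries that define the regions, for the 224 regions that hold a listed start (red) and the 507 that do not (blue). Black bars are medians, and open circles are regions with a peak in replicate 2 of S490/498. The highest red point is 20.7, whereas blue points reach 57.2.

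Replicate 2 of S490/498 had a peak in 36 of the 896 regions (4.02%, 2.83 to 5.52), beside 3.81% of all core regions. The share was 1.46% (0.972 to 2.10) at single gene ends, 0.835% (0.272 to 1.94) at shared gene ends and 11.8% (9.62 to 14.3) between genes. Inside genes the regions split. None of the 224 at a listed start had a peak in that library, which allows up to 1.63% by the exact interval, against 29 of the 507 without one (5.72%, 3.86 to 8.11). Another 7 of the 165 regions whose host gene has no listed start had one (4.24%, 1.72 to 8.55). Without the regions with a fold of at least 20 in all 3 libraries, the share away from starts was 4.65%. These shares rest on a single library.

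**Figure D5:**
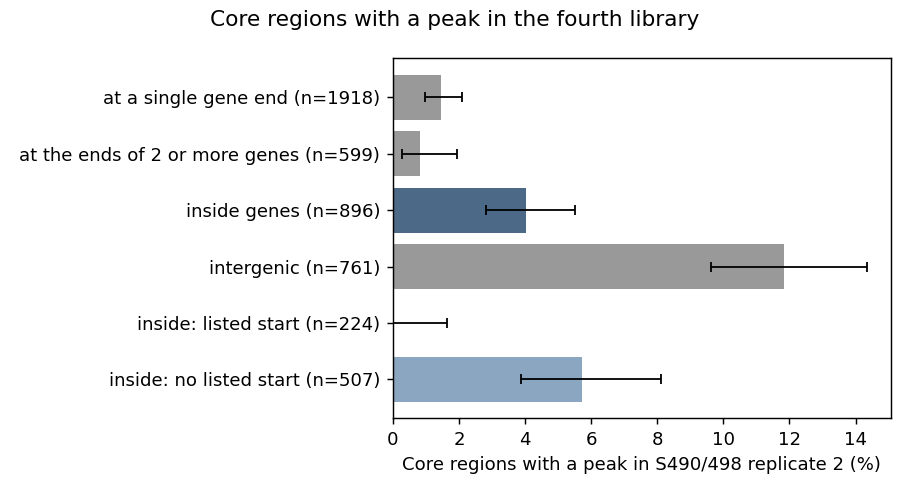
Share of core regions with a peak in replicate 2 of S490/498 (horizontal axis, percent) by place of the region (vertical axis), with exact binomial 95% intervals. Dark blue is all 896 regions inside genes, and the last pair of bars divides those whose host gene has a listed start. The bar for regions at a start is 0.

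The strongest of the 36 by that library's −log10 q was in Smo, the transducer of Hedgehog signals (chr6:29747877-29749031). Its folds were 34.8 and 23.2 in the T69/71 libraries and 30.1 and 22.5 in replicates 1 and 2 of S490/498. The region lay in the middle of the gene, at 50.1% of its length. Ppp1r9a, the gene of the cytoskeletal protein neurabin, had 41.3, 38.8, 39.4 and 19.4 in the same order. Cdk8, the kinase of the Mediator complex, had 24.3, 29.5, 22.9 and 16.1. In all 3 of these genes the fold was lowest in replicate 2 of S490/498. Jarid2, a partner of Polycomb complex 2, had 21.9, 33.9, 16.3 and 15.1. Kctd16 had 7.58, 16.8, 5.22 and 18.5, and Cldn34d, a claudin gene, had 14.8, 13.8, 13.8 and 19.4, so in these genes replicate 2 of S490/498 was the highest. Tmem267, Filip1l, Zc3h7a and Camk1d complete the 10 strongest. Flt1, Ttc21b and Chl1, the best 3 by mean rank of −log10 q over the other libraries, had no peak there. Of the 13 regions with a fold of at least 20 in all 3 libraries, 6 had one, and none of the 7 narrower than 350 bp did. The narrowest of all 36 regions with a peak there was 356 bp, so this lack was not particular to the 13.

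The 896 regions lay in 822 protein-coding genes, 3.76% of the 21887 on these chromosomes, and 9 regions lay in 2 genes. A single region was found in 749 genes, 2 in 64, 3 in 8 and 4 in 1. Counting 1 host per region, the 814 host genes were long, with a median of 53.3 kb against 17.2 kb for all coding genes, and genes with several regions longer still, at 107 kb against 49.1 kb for those with 1. The share of genes with a region rose with length, from 0.669% up to 10 kb to 7.0% at 50 to 100 kb and 11.7% over 200 kb. The rule needs a midpoint over 1 kb from gene ends, and a longer gene offers more such sequence. These differences in length therefore follow in part from the rule, and how far they exceed it was not tested. The smallest gap between regions of a gene had a median of 15.4 kb and was under 5 kb in 10 of 73 genes. Without replicate 1 of S490/498 in the rule, 231 genes had several regions, and with −log10 q of at least 5 there were 33.

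Tex14, a gene of germ cell bridges, had the most regions, and each of its 4 lay at a gene annotated as small nuclear RNA inside it. The genes were Rnu1a1, a U1 gene, and Rnu3b1, Rnu3b3 and Rnu3b4, U3 genes, on chromosome 11 between 87422867 and 87462503. In every library with a peak, the summit lay beyond the upper end of the small RNA gene, by 66, 187 and 64 bp at Rnu3b1 in the 3 libraries and by 122, 257, 196 and 172 bp at Rnu1a1 in all 4. The folds at Rnu1a1 were 6.39 and 8.08 with T69/71 and 5.36 and 5.67 with S490/498. Rnu3b4 had 6.85, 8.24, 4.56 and 5.55. Rnu3b1 had 10.0, 9.40 and 5.13 and Rnu3b3 had 8.0, 9.57 and 5.21, with no peak in replicate 2 of S490/498. Rnu3b2, another U3 gene there, had a peak in replicate 2 of T69/71 alone (fold 8.86). The U3 genes are near-identical copies, and how reads that fit several copies were handled is not given in the sources used here.

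The genes with 3 regions were Kdm6b, Snx29, Vmp1, Por, Maml3, Ptprs, Prkar2b and Def6. Kdm6b, a histone H3K27 demethylase of 21.9 kb, had 1.37 regions per 10 kb, and Def6, an activator of Rac and Cdc42 of 21.2 kb, had 1.42. The Kdm6b regions spanned 9.35 kb. By mean rank of −log10 q, the first had folds of 13.8, 9.07 and 11.8 in replicates 1 and 2 of T69/71 and replicate 1 of S490/498. The next had 9.43, 12.3 and 8.88, and the last 3.85, 4.29 and 3.10. Def6 had 7.65, 15.4 and 9.36 at 16.7 kb, 12.8, 7.82 and 7.41 at 10.4 kb, and 7.33, 8.14 and 5.77 at 4.70 kb. In Kdm6b and in Def6 the site with the highest fold thus differed between the T69/71 replicates. In Snx29 the 3 regions lay within 12.9 kb of a gene of 436 kb, whereas in Maml3, a Notch coactivator, they were spread over 336 kb. Of these 8 genes, Por and Ptprs, a receptor phosphatase, each had 1 region at a listed start. Kdm6b has no listed start, so its regions could not be placed in this way. Btbd9 led the genes with 2 regions, at folds of 18.9, 15.0 and 18.1 for the stronger.

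Chromatin regulators were the list with the largest share of host genes, 13 of 38 (34.2%, 19.63 to 51.35), beside 3.76% of all coding genes. Of genes of 50 to 100 kb, 7.0% held a region, and the list's median length was 82.0 kb. Examples were Chd2, a remodeller (14.4, 15.3 and 13.9 in replicates 1 and 2 of T69/71 and replicate 1 of S490/498), Hdac4 (11.9, 11.5 and 11.3, at a start) and Rere, a corepressor (10.6, 16.9 and 9.32). Beside 9.31% of genes of 100 to 200 kb, signal adaptors and GTPase regulators had 8 of 36 (22.2%, 10.12 to 39.15, median length 109 kb). Among them were Inpp5d, the phosphatase SHIP1 (9.62, 9.87 and 8.01), Arhgef2, Sos1 and Arhgef1. Of genes of 10 to 50 kb, 3.8% held a region. Stress MAPK genes had 6 of 29 (20.7%, 7.99 to 39.7, median length 39.7 kb), with Dusp16, Mapkapk3, Dusp5 and Map2k3 leading. Mapkapk3, a kinase downstream of p38, was the only one of the 6 with a peak in every library, at 8.04, 8.72, 7.34 and 5.05. Beside 0.669% of genes up to 10 kb, immediate early and quiescence genes had 5 of 25 (20.0%, 6.83 to 40.7, median length 5.34 kb). They included Tob1, Per1, a clock gene (4.83, 4.24 and 7.17), Cdkn1a, the inhibitor p21 (10.6, 7.51 and 7.72), and Tsc22d3, a glucocorticoid-induced gene (8.57, 5.98 and 8.0). The lists were drawn up with earlier results of these data known.

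In the list of leucine-zipper factors (AP-1, ATF, CREB), 4 of 34 held a region (11.8%, 3.3 to 27.45). That interval includes the 3.76% of all coding genes. The 4 genes were Creb5 at a start, the small Maf genes Maff (9.65, 6.33 and 5.66, at a start) and Mafg (5.83, 4.45 and 6.39), and Crem, a gene with a cyclic AMP-inducible internal promoter (9.47, 5.41 and 8.32), for which no start was listed. Among HSC transcription factors, 2 of 30 held a region (6.67%, 0.818 to 22.1), near the 3.76% of all coding genes and the 7.0% of those of 50 to 100 kb. The list's median length was 56.7 kb. They were Runx1 (5.56, 8.60 and 4.01 at 110 kb) and Ikzf1 (6.53, 9.12 and 5.71 at 78.6 kb), both required for normal blood formation. Of HSC receptors, 3 of 24 held a region (12.5%, 2.66 to 32.4), an interval that also includes 3.76%. The receptors were Kit, that of stem cell factor (10.0, 6.56 and 6.90 at 14.7 kb), Flt3 (7.08, 10.6 and 4.36) and Tgfbr2 (8.04, 14.2 and 7.59). In each of Runx1, Ikzf1, Flt3 and Tgfbr2 the fold was highest in replicate 2 of T69/71, whereas Kit was highest in replicate 1.

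Of 9 HSC-defining markers, Kit alone held a region. A peak does not measure expression, so this is no check of the identity of the sorted cells. Myeloid markers had 2 of 20, Spi1, the factor PU.1 (8.99, 9.53 and 8.78), and Fcgr3. Megakaryocyte markers had 2 of 16, Selp and Itga2b, erythroid markers had 1 of 18 (Bcl2l1), and stromal and endothelial markers had 1 of 13 (Flt1). The exact interval of each of these lists, myeloid included, held the 3.76% of all coding genes. B lymphoid (14), T and NK (18), mast cell and basophil (11) and neural genes (22) had none. The upper exact limits were 23.2%, 18.5%, 28.5% and 15.4%, all above the 3.76% of all coding genes, so these counts do not set the lists apart from it. The neural genes had a median length of 135 kb, and 9.31% of genes of 100 to 200 kb held a region. Fanconi anaemia genes had 1 of 26 (3.85%), Fancc, a core complex subunit (6.43, 5.35 and 5.39 at 133 kb). The 29 DNA damage and replication stress genes, Dek among them, had none (upper limit 11.9%, also above 3.76%).

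Ends of noncoding genes lay within 1 kb of a small part of the regions. The same shares for other core regions or for gene body are not given here, so excess or lack cannot be read from these counts. A long noncoding RNA gene ended within 1 kb of 59 (6.58%, 5.05 to 8.41), such as Zbtb11os1 at Zbtb11, Snhg9 at Rps2 and Kcnq1ot1 inside Kcnq1. The region near Kcnq1ot1, the antisense RNA of an imprinted domain, had folds of 6.46, 6.62 and 5.74. By the annotation's classes, microRNA genes ended within 1 kb of 7 regions and pseudogenes of 2. Genes annotated as small nuclear RNA, those in Tex14 named above, did so at 4. A small nucleolar RNA gene (Snora78) and a transfer RNA gene (n-TEctc5, in Fcgr3) did so at 1 each. Rps2 and Kcnq1 are named after their values were seen.

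Peaks inside genes, away from ends, made up 31.2% (30.4 to 32) of replicate 1 and 34.5% (33.8 to 35.3) of replicate 2 of T69/71, and 28.4% (27.3 to 29.4) of replicate 1 and 34.0% (29.6 to 38.7) of replicate 2 of S490/498. The antibody means were 32.9% and 31.2%, a difference of 1.67 points that was smaller than the spread within either antibody (3.32 and 5.66 points). Permuting the 4 libraries (exact, two-sided) gave p = 0.667, where the smallest p this design allows is 0.333. Without replicate 1 of S490/498 the difference turned to -1.16 points, without its replicate 2 it was 4.50, without replicate 1 of T69/71 it was 3.33 and without its replicate 2 it was 0.0158. Among the 435 strongest peaks of each library it was -7.36 points. Core status was rarer for peaks inside genes than at single gene ends, at 23.1% against 45.7% in replicate 1 and 18.1% against 44.6% in replicate 2 of T69/71, and 44.4% against 75.5% in replicate 1 of S490/498. For peaks between genes it was 22.9%, 18.6% and 42.9% in the same order, close to the shares inside genes. The low share is thus not particular to peaks inside genes.

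Across the 896 regions log2 fold correlated with Pearson r = 0.77 between both replicates 1, 0.57 between the T69/71 replicates and 0.59 for the remaining pair. The Spearman rho values were 0.68, 0.45 and 0.45. For the 224 regions at a start rho was 0.74, 0.54 and 0.51, and for the 507 without one 0.64, 0.39 and 0.42. These describe regions that share a library and its depth, and they are not replicates. At the 1 kb limit, the nearest regions inside it were in Pnrc1 (1005 bp from a gene end, folds 16.4, 14.9 and 16.6) and Unc45a (1006 bp), and the nearest left out were in Jund (999 bp, folds 16.8, 14.2 and 15.5) and Eif4a1 (992 bp).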

How the data were processed

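Each library has its own deposited peak list on mm10. Bowtie2 2.2.9, FastQC 0.11.5, ChIPseeker and MACS2 are named in the submitters' processing notes (settings: not given in the sources used here). Per peak, the deposited columns are a ratio (fold enrichment at the summit), −log10 p, −log10 q, a score and the summit position. The smallest deposited −log10 q was 1.31 to 1.39. Peaks on other sequences (16 to 41 per list) were left out.

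Overlap meant at least 1 bp. Gene spans came from the RefSeq table of GRCm38.p6 (21887 protein-coding genes), and starts and strand from the RefSeq start windows, which covered 17492 of those genes and 731 of 896 regions; 27 regions lay on a chromosome with no listed start. Distance runs from the outer end of the gene at its listed strand's start. A region in 2 genes took the nearer start. No genome was used, so motifs at summits were not counted. The pileup was solved within 0.001 of the deposited −log10 p for over 99% of regions. The merging and placing of regions were tested on simulated data, where 100% of 299 planted regions were recovered. The planted peaks overlapped by design and kept clear of the 1 kb limit. Weak overlaps, that limit, distances to starts and motif shares were not tried. The software was Python 3.11.15, pandas 2.3.3 and scipy 1.17.1. Genes were named by a rule: the 10 best mean ranks of −log10 q, the 10 genes with most regions, the 10 strongest in replicate 2 of S490/498, up to 4 per gene list and the 5 farthest from the start. The regions, lists and motifs were chosen with earlier results of these data known. Intervals cover counting error only.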

Additional observations from a re-analysis of the deposited data

How the results depend on the processing

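With −log10 q of at least 5 in each list, 540 regions and 33 genes with 2 or more regions remained, against 896 and 73, because fewer peaks entered. Leaving out a library while the core needs only the other 2 lists gave 1075 to 1791 regions, 103 to 231 such genes, a median distance from the start of 14.8 to 18.3 kb and a share with a peak in replicate 2 of S490/498 of 2.62% to 3.72%. The highest counts came without replicate 1 of S490/498 (1791 and 231), the shortest of the 3 lists. With over 2 kb from gene ends the median distance was 19.4 kb. An overlap of at least 50% (847 regions) and the summit in place of the midpoint (896) moved no such value beyond its limits. The antibody difference in the share of peaks inside genes turned to -7.36 points among the 435 strongest peaks, was 0.125 points with −log10 q of at least 5, and ran from -1.16 to 4.50 points when a library was left out. With the replicate number as a block it was 1.67 points (exact sign-flip permutation p = 0.5, the smallest possible), and nothing in the labels says that the numbers pair the libraries. With a midpoint within 250 bp as the criterion, chosen after seeing the data, 24.8% of regions were at a start, and within 1 kb 32.6%. The share with a CRE or AP-1 motif at the summit was not run. The pileups limit each fold to few fragments.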
